A study of Mus musculus and Rattus norvegicus with 18 samples.

Results

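The interferon response genes are 36 genes taken from a fixed list of symbols and found in each of the 3 count tables of the series. They are 36 of 55487 gene IDs in the heart RNA table, 36 of 17866 genes with an open reading frame in the heart footprint table, and 36 of 32883 gene IDs in the rat H9C2 table. The rule that lists them uses no measured value, but the members were chosen with earlier results of these data known. Interferons are cytokines that cells release on sensing viral or misplaced nucleic acid. They bind receptors on the same or neighbouring cells, where JAK kinases phosphorylate STAT proteins, which join IRF9 and switch on genes whose promoters carry an interferon-stimulated response element. The induced proteins block viral replication, edit or degrade RNA, cut peptides for presentation on MHC class I and recruit immune cells, and unstimulated tissues, the heart included, keep many of these genes at a low basal level.

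The study removed Mettl1, the enzyme that places N7-methylguanosine on a subset of tRNAs, from mouse heart and from rat H9C2 cells. Hearts of 4-week-old C57BL/6 mice came in 2 genotypes, Ctrl and Mettl1-cKO (M1cKO in the labels, cKO here), each with 2 RNA-seq and 2 Ribo-seq libraries. The labels give neither the Cre driver nor the deleted exon, nor the alleles that the Ctrl mice carry. H9C2 is described in the sources used here as a line derived from heart tissue of Sprague-Dawley rat. It was grown in high-glucose DMEM with fetal bovine serum and sequenced as 3 WT and 3 M1-null RNA libraries. All M1-null libraries share 1 genome-edited line with a CRISPR-Cas9 frameshift, so a difference between lines cannot be told apart from the loss of Mettl1. Nothing in the labels says whether replicates were separate mice or cultures, and the p-values below measure only the spread between these libraries.

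Library totals were 15052652 to 16844783 counts in heart RNA, 25171650 to 39675627 in footprints and 90321496 to 94202947 in H9C2. Mettl1 itself was lower in every library labelled as lacking it. Its level in CPM, the count as a rate per library total adjusted by TMM factors, went from 4.31 and 3.76 in Ctrl to 2.49 and 2.52 in cKO heart RNA (log2 fold change −0.69, adjusted p = 0.0664), from 6.28 and 6.62 to 2.22 and 2.22 in footprints (−1.54), and from between 15.6 and 16.6 to between 3.75 and 4.72 in H9C2 (−1.93). The hearts carried cardiomyocyte markers at 44962 to 49296 CPM summed over 9 genes. H9C2 is called a cardiomyocyte line in the labels, but the 8 cardiomyocyte markers listed in the rat table summed to only 25.6 to 27.7 CPM in WT, with Ryr2 at 0 in every library, while the myoblast regulator Myod1 stood at 103 to 124 CPM.

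The promoters are shown first because many of them hold the core of the interferon-stimulated response element, although the list itself was drawn by gene symbol and not by sequence. Of the 36 members, 27 had a promoter in RefSeq's table for mouse build GRCm38.p6, a window from 250 bases before the annotated start to 50 bases into the gene. That core was searched on both strands as GAAANNGAAA, or TTTCNNTTTC on the other strand. It was found in 14 of the 27 (51.9%), against 3.99% of all 27025 genes in the table and 3.44% of its 32851 windows. The gamma-activated site, the palindrome TTCNNNGAA bound by STAT dimers, was found in 7 of the 27 (25.9%), against 9.55% of all genes and 8.30% of windows. The 2 motifs can overlap, as they do in Bst2 and in Ifitm3, where in the latter the gamma-activated site starts 13 bases after the annotated start and the core at 2 and at 19. A match describes the letters in the window only, and since H9C2 is a rat line these mouse sequences are not its own. The stretches below are from the 6 members with the smallest adjusted p-values among those that changed in at least 1 comparison and hold the core. Capitals mark the core, and each stretch runs 5′ to 3′ on the strand of its gene.
Gbp2, chr3:142620559-142620658, plus strand: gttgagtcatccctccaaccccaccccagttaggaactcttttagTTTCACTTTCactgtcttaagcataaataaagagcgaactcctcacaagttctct
Ifitm3, chr7:141010716-141010787, minus strand: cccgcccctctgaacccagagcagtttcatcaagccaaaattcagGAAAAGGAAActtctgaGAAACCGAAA
Stat2, chr10:128270248-128270330, plus strand: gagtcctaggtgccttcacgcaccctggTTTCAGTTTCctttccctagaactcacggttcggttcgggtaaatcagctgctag
Cxcl10, chr5:92349048-92349139, minus strand: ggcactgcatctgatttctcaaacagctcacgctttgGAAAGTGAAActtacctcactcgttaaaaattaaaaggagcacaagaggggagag
Ifitm2, chr7:140955962-140956052, minus strand: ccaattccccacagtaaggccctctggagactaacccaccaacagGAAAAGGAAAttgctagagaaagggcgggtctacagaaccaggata
Isg15, chr4:156200830-156200941, minus strand: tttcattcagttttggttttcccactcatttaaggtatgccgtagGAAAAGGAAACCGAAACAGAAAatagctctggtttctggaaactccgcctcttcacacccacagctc

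The cores differ in number and place. Isg15 carries 3 overlapping cores, the first starting 78 bases before the annotated start. Ifitm2 has the same 10 letters, GAAAAGGAAA, starting 46 bases before its start, and Ifitm3 has them 2 bases after its own. Gbp2 and Stat2 hold the core on the opposite strand, at 59 and 222 bases before the start. Cxcl10 holds GAAAGTGAAA, starting 213 bases before.

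In cKO heart RNA, 3 of the 36 members rose and none fell. They were Tap1, a subunit of the transporter that carries peptides into the endoplasmic reticulum for MHC class I, Zbp1, a sensor of left-handed nucleic acid, and Cxcl10, a chemokine that draws T cells. That is 8.33% of the members higher and 0% lower, while 8.16% of the 14088 genes tested were higher and 6.26% lower by edgeR's quasi-likelihood test at a Benjamini-Hochberg adjusted p under 0.05. The share of members that rose was thus close to that of all genes. Of the 3 that rose, Cxcl10 passed the count filter only through its cKO libraries. At an unadjusted p under 0.05, 5 members passed, each of them higher in cKO, and DESeq2 and limma-voom also called no member lower. The share of all genes at that unadjusted cut is not given here, so no excess of members is read from the 5. The median log2 fold change of the members was 0.06, against −0.00 for all genes tested. When libraries were scaled by their totals alone, without TMM factors, the split over all genes moved from 1150 higher and 882 lower to 1769 and 506.

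**Figure D1:**
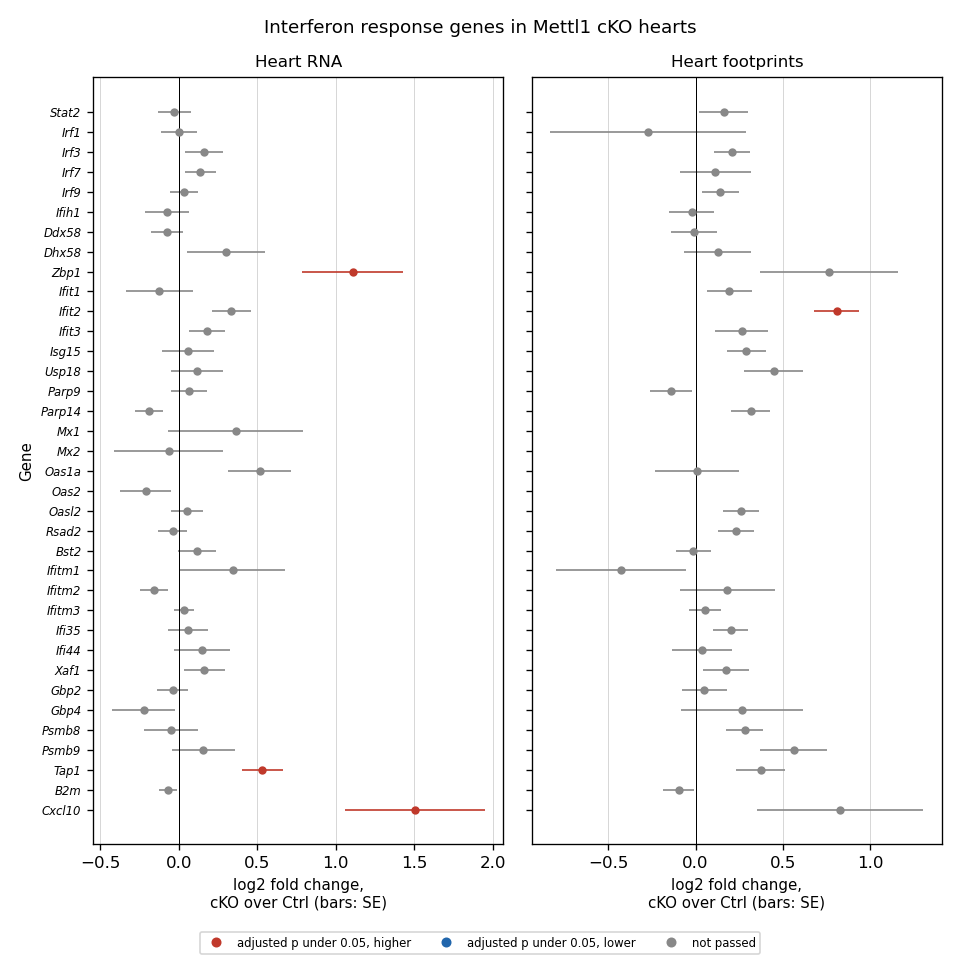
Log2 fold change (cKO over Ctrl, bars are SE, 2 libraries a group) of each tested member in heart RNA (left) and heart footprints (right), in the order of the members' roles, with members past an adjusted p of 0.05 in red. Most points lie within 0.5 of 0 in both assays. Tap1, Zbp1 and Cxcl10 are past the threshold in RNA and Ifit2 in footprints. Oas1a in RNA (0.52) and Cxcl10 (0.83), Zbp1 (0.77) and Psmb9 (0.56) in footprints also lie above 0.5 without passing.

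Tap1 (ENSMUSG00000037321, GRCm38.p6 chromosome 17, 34187556 to 34197225) stood at 10.7 and 12.5 CPM in Ctrl heart RNA and at 15.3 and 18.4 in cKO. Both cKO libraries were above both Ctrl libraries. The rise was 0.53 on the log2 scale (SE 0.13, n = 2 against 2, adjusted p = 0.0131). The call was lost with DESeq2 (adjusted p = 0.067) and without cKO 2 (0.133), and its adjusted p ranged from 6.99e-04 to 0.133 over all alternatives.

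Zbp1 (ENSMUSG00000027514, chromosome 2, 173206612 to 173218959) stood at 1.03 and 2.04 CPM in Ctrl and 3.76 and 2.84 in cKO. The libraries of each genotype were spread widely, but the genotypes did not overlap. The log2 fold change was 1.11 (SE 0.32, adjusted p = 0.0323), from 48 counts in Ctrl and 109 in cKO. It did not pass with DESeq2 (adjusted p = 0.143), without Ctrl 1 (0.196, log2 fold change 0.70) or without cKO 1 (0.25, 0.89). Over all alternatives its adjusted p ranged from 8.13e-04 to 0.25.

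Cxcl10 (ENSMUSG00000034855, chromosome 5, 92346638 to 92348889) had the largest log2 fold change of the members in heart RNA, 1.5 (SE 0.45, adjusted p = 0.0346), and the fewest counts. It stood at 0.451 and 0.446 CPM in Ctrl and 1.21 and 1.36 in cKO, or 14 counts against 42. With 7 counts in each Ctrl library and 21 in each cKO library, the gene passed the count filter only through cKO, where it is high. The groups were well apart, but the call was lost with DESeq2 (adjusted p = 0.253) and when any 1 of the 4 libraries was left out (0.127 to 0.198). Its adjusted p ranged from 0.024 to 0.253 over all alternatives that tested it, and a minimum of 50 counts removed it. The gene record of Cxcl10 overlaps that of Art3, which stood at 338 to 415 CPM, and the sources used here do not say whether reads were counted by strand. Art3 itself was lower in both cKO libraries (log2 fold change −0.19, adjusted p = 0.0602).

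The transcription factors of the response did not pass in heart RNA. Irf9, the DNA-binding partner of STAT2, stood at 34.9 and 31.6 CPM in Ctrl and 34.0 and 34.2 in cKO. Stat2 (22.7 to 26.6 CPM over the 4 libraries), Irf1 (20.8 to 25.9) and Irf3 (17.3 to 23.1) overlapped between genotypes as well. Irf7, the factor that amplifies type I interferon genes, was at 22.3 and 23.3 in Ctrl and 23.8 and 26.4 in cKO, higher in both cKO libraries but not past the test (adjusted p over all genes 0.416).

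The nucleic acid sensors beside Zbp1 did not pass. Ddx58 (RIG-I), which senses viral RNA ends, stood at 24.3 and 28.2 CPM in Ctrl and at 24.3 and 25.7 in cKO. Ifih1 (MDA5), a sensor of long double-stranded RNA, ranged from 9.02 to 10.3 and overlapped. Dhx58 (LGP2), which modulates those sensors, was at 2.64 and 2.42 against 2.95 and 3.30, higher in both cKO libraries.

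The IFIT proteins bind viral RNA and block its translation. Ifit2 RNA stood at 12.6 and 11.1 CPM in Ctrl and 15.2 and 14.7 in cKO. Both cKO libraries were higher, by 0.34 on the log2 scale (SE 0.12, adjusted p = 0.0849), which passed only with library totals (0.0311, with a range of 0.0311 to 0.396 over all alternatives). Ifit3 was at 14.7 and 13.9 against 15.4 and 17, and Ifit1 overlapped between 4.52 and 6.69. Reads of Ifit3 and its near-identical neighbour Ifit3b could be split between them, as could those of Ifit1 and the overlapping Ifit1bl1, so both members are uncertain.

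None of the ISG15 system, the PARPs and the direct antivirals passed in heart RNA. Parp14, a mono-ADP-ribosyltransferase of the interferon response, was at 34.7 and 37.4 CPM in Ctrl and 30.1 and 33.1 in cKO, lower in both cKO libraries. Isg15, the ubiquitin-like modifier, ranged from 6.05 to 6.72, its deconjugating protease Usp18 from 6.24 to 7.43, and Parp9 from 16.2 to 19.0. Rsad2 (viperin), which makes a chain-terminating nucleotide, was at 27.2 and 27.8 against 25.4 and 28.1. Oas1a, an oligoadenylate synthetase, stood at 4.96 and 3.63 in Ctrl and 5.96 and 6.33 in cKO and passed only without Ctrl 1 (log2 fold change 0.76, adjusted p = 0.030, against 0.52 and 0.104 with all libraries and a range of 0.0300 to 0.444 over all alternatives). Its copies, such as Oas1g, make its counts uncertain. Oas2 (7.52 to 10.7), Oasl2 (23.9 to 27.5), Mx1 (0.81 to 1.36) and Mx2 (1.21 to 1.75), the last 2 of the Mx GTPase family, overlapped between genotypes.

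The membrane restriction factors and the remaining induced proteins did not pass either. Ifitm3, which stops viruses from fusing with endosomes, was at 88.2 and 86.6 CPM in Ctrl and 89.4 and 89.5 in cKO. Ifitm2 was at 33.9 and 34.1 against 29.4 and 31.6, and Ifitm1 at 1.22 and 1.46 against 1.85 and 1.55. Bst2 (tetherin), which holds budding virions on the cell, overlapped between 14.96 and 18.7. Gbp2, a GTPase that attacks pathogen membranes, was at 23.7 and 26.5 against 25.5 and 23.4, and Gbp4 ranged from 6.59 to 11.2, both with overlap. Ifi35 (11.6 to 13.5) and the apoptosis factor Xaf1 (12.03 to 15.6) overlapped too, and Ifi44 was at 5.47 and 5.35 against 6.48 and 5.49.

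In antigen processing, Tap1 rose while its neighbours on chromosome 17 did not pass. B2m, the invariant chain of MHC class I, was at 284 and 302 CPM in Ctrl and at 270.2 and 289 in cKO. Psmb8 and Psmb9, immunoproteasome subunits, ranged from 6.24 to 7.77 and from 5.03 to 7.24, with the genotypes overlapping. Outside the members, the third immunoproteasome subunit, Psmb10, rose from 25.4 and 22.4 CPM to 48.4 and 42.1 (log2 fold change 0.92, SE 0.10, adjusted p = 1.55e-05).

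**Figure D2:**
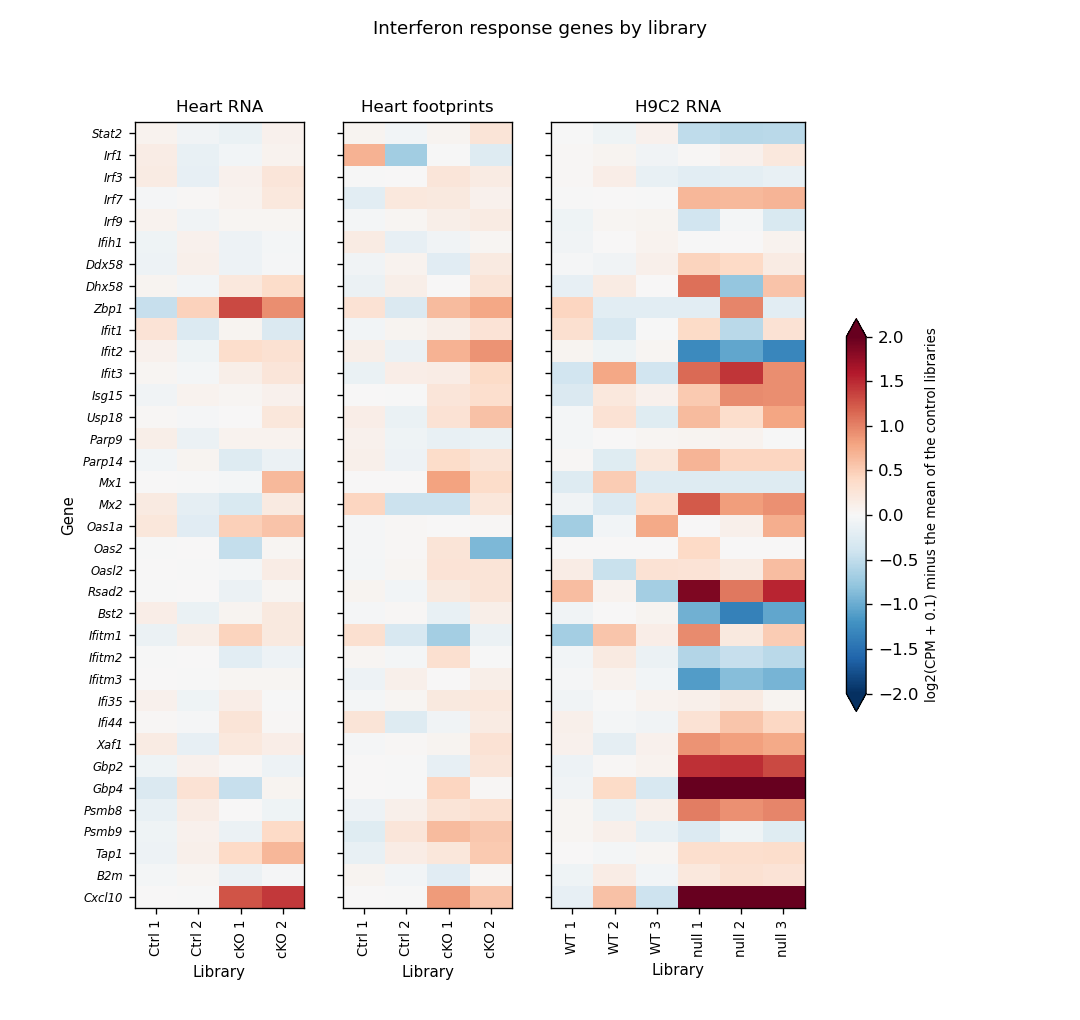
Level of each member in each library as log2(CPM + 0.1) minus the mean of the control libraries (Ctrl or WT) of the same assay, with colours clipped at −2 and 2. The heart panels are mostly pale, with Zbp1, Ifit2, Tap1 and Cxcl10 among the rows with more colour. The null columns of H9C2 show both red genes, such as Gbp2, Gbp4 and Cxcl10, and blue genes, such as Ifit2, Bst2 and Ifitm3.

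Ribosome footprints report which mRNAs are being translated. Of the 36 members, 33 were tested in footprints, 1 rose and none fell. Mx1, Mx2 and Oas2 held at most 5 footprints a genotype and were not tested. Among all 13514 genes tested, 9.11% were higher and 7.33% lower, against 3.03% and 0% of the tested members. At an unadjusted p under 0.05, 9 members passed, each higher in cKO, and DESeq2 and limma-voom called 0 lower. The share of all genes at that unadjusted cut is not given here, so no excess of members is read from the 9. The median log2 fold change of the tested members was 0.18, against 0.00 over all genes, and 26 of the 33 values (78.8%) were above 0, against 50.6% of all genes. With library totals the split over all genes went from 1231 higher and 990 lower to 1639 and 657.

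Ifit2 (ENSMUSG00000045932, GRCm38.p6 chromosome 19, 34550550 to 34576534) was the member whose footprints rose. They stood at 12.3 and 10.4 CPM in Ctrl and at 18.5 and 21.2 in cKO. Each cKO library was above each Ctrl library by more than either genotype's own spread, and the rise was 0.81 on the log2 scale (SE 0.13, n = 2 against 2, adjusted p = 5.04e-04). The call held in each of the alternatives that keep the threshold, with adjusted p from 3.97e-08 to 0.00839. The table lists 2 frames of Ifit2, a frame of 470 codons with 296 and 344 footprints in Ctrl and 741 and 733 in cKO, and a frame of 37 codons that lies before it, with 17 and 18 against 41 and 57. Both frames carried more footprints in both cKO libraries, before scaling for library size.

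The 3 members that rose in heart RNA were also higher in both cKO footprint libraries, without passing the test. Tap1 footprints were at 10.9 and 13.3 CPM in Ctrl and 14.1 and 17.3 in cKO (log2 fold change 0.37, SE 0.14, adjusted p = 0.0901). Zbp1 was at 0.998 and 0.638 against 1.30 and 1.44 (0.77, SE 0.39, 0.221), and Cxcl10 at 0.457 and 0.455 against 0.899 and 0.722 (0.83, SE 0.48, 0.278). Cxcl10 held 26 and 61 footprints in the 2 genotypes, so its SE was among the widest of the members.

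A group of members lay just short of the threshold in footprints. Psmb9 stood at 3.87 and 5.46 CPM in Ctrl and 7.22 and 6.70 in cKO (log2 fold change 0.56, adjusted p = 0.0591). Parp14 stood at 24.0 and 20.7 against 28.8 and 26.7 (0.32, 0.0648), opposite in sign to its RNA. Psmb8 was at 23.3 and 26.9 against 30.0 and 31.3 (0.28, 0.0863). In the same range lay Usp18, at 7.11 and 5.92 against 7.94 and 9.76 (0.45, 0.0886), and Isg15, at 17.1 and 16.9 against 20.1 and 21.6 (0.29, 0.091). With library totals, Isg15, Usp18, Parp14, Oasl2, Psmb8, Psmb9 and Tap1 passed as well, which brought the count to 8. In that fit 1639 of all 13514 genes were higher, and the median log2 fold change of all genes was 0.073. The count was 5 when each gene with any count was tested, where 1422 of all 16320 genes were higher. Over the fits that left out 1 library, the log2 fold change ranged from 0.21 to 0.42 for Parp14, 0.19 to 0.39 for Psmb8 and 0.35 to 0.84 for Psmb9.

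Footprints of the sensors and transcription factors did not pass the test in either direction. Irf3, a factor that switches on interferon genes directly, was at 23.2 and 23.7 CPM in Ctrl and 27.7 and 26.4 in cKO, and Irf9 at 21.0 and 22.3 against 23.6 and 24.2, higher in both cKO libraries without passing. Ddx58 was at 19.8 and 21.6 in Ctrl and 17.7 and 23.6 in cKO. Ifih1 ranged from 16.0 to 20.0, Stat2 from 9.84 to 12.3 and Irf7 from 3.91 to 5.25, each with overlap. Rsad2 was at 26.2 and 24.4 against 29.0 and 30.3, and Oasl2 at 19.8 and 21.1 against 24.6 and 24.4. The most abundant members did not separate the genotypes, Ifitm3 standing at 63.0 and 73.1 against 68.3 and 73.2 and B2m at 691 and 645 against 573 and 676. Ifi35 was at 22.9 and 24.3 against 26.9 and 27.4, while Parp9 was lower in both cKO libraries, at 16.0 and 14.2 against 13.6 and 13.7. Of the remaining members, Ifit1 (11.4 and 12.4 against 12.9 and 14.3), Ifit3, Xaf1 and Gbp4 had both cKO libraries above both Ctrl libraries, and Irf1, Dhx58, Oas1a, Bst2, Ifitm1, Ifitm2, Ifi44 and Gbp2 overlapped.

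Footprints divided by the length of the frame allow levels to be compared between members. In CPM per kb of frame, B2m led with a mean of 1870 in Ctrl and 1749 in cKO, followed by Ifitm3 at 166 and 172 and Bst2 at 96.5 and 95.7. Ifitm3 spanned 153 to 178 over the 4 libraries and Bst2 87.3 to 104, so these 3 ranks did not overlap. Isg15 (35.2 and 43.1), Psmb8 (30.3 and 37.0) and Ifi35 (27.5 and 31.6) came next. The range of Psmb8 overlapped those of the other two, while Isg15 was above Ifi35 in every library. Ifit2 had a mean of 8.07 in Ctrl and 14.1 in cKO. Cxcl10 (1.55 and 2.76), Zbp1 (0.663 and 1.11), Gbp4 (0.636 and 0.762) and Irf1 (0.696 and 0.552) held the lowest densities among the tested members. Irf1 had RNA at 20.8 to 25.9 CPM and footprints at 0.334 to 1.04 CPM, and Ifitm2 had RNA at 29.4 to 34.1 CPM and footprints at 2.09 to 2.72. These RNA levels are not divided by length, and footprints of Ifitm2 could be shared with its close relative Ifitm3. They therefore give no rate of translation.

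Translational efficiency compares the footprint change with the RNA change in 1 model over the 8 heart libraries. Of the 33 members tested, none passed in either direction by edgeR's test, and 2 had an unadjusted p under 0.05. The share of all genes at that unadjusted cut is not given here. DESeq2 also called 0, with no adjusted p for 23 members. Among all 12662 genes tested, 0.0711% were higher and 0.0553% lower, or 9 and 7 genes. The largest positive interaction was that of Parp14, a log2 difference of 0.49 (SE 0.14, adjusted p = 0.246), and Ifit2 had 0.45 (SE 0.18, 0.441). The most negative was that of Ifitm1, −0.78 (SE 0.51, 0.679). Cxcl10 (−0.70, SE 0.63), Tap1 (−0.18) and Zbp1 (−0.35) were negative, and Zbp1 changed sign without Ctrl 1 (0.38). A change in footprints of Ifit2 beyond that of its RNA was therefore not detectable with these libraries.

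**Figure D3:**
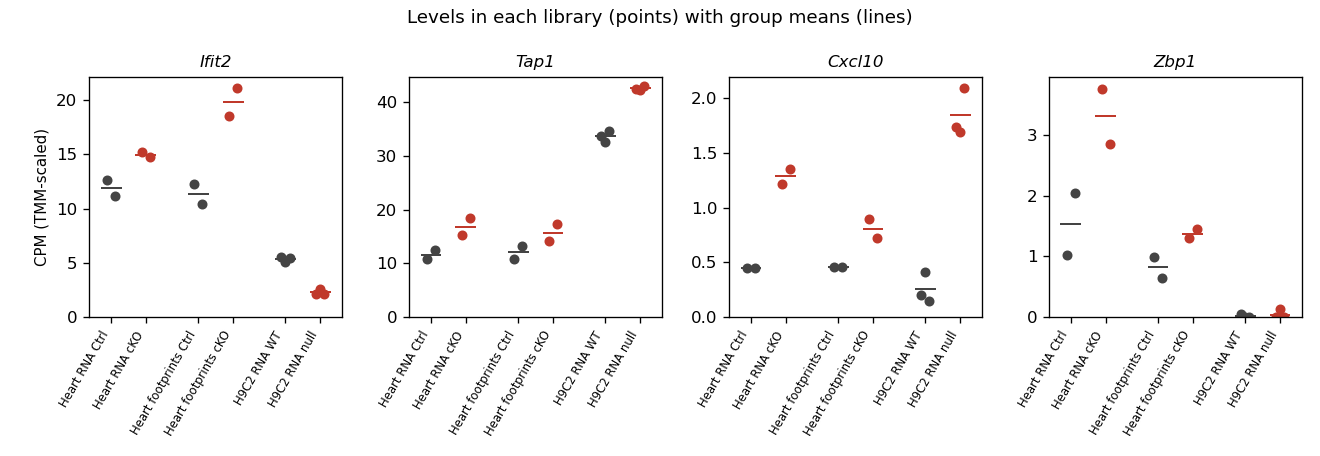
CPM of Ifit2, Tap1, Cxcl10 and Zbp1 in each library (points) with group means (lines), for heart RNA, heart footprints and H9C2 RNA, control groups in grey and Mettl1 loss in red. Ifit2 is higher in cKO footprints and lower in null H9C2 cells, Tap1 and Cxcl10 are higher with Mettl1 loss in all 3 assays, and Zbp1 is close to 0 in H9C2.

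In Mettl1-null H9C2 cells, 17 of the 32 tested members changed, 12 higher and 5 lower. Zbp1, Mx1, Oas1a and Oas2 had at most 29 counts a group and were not tested. Of the 14801 genes tested, 13.6% were higher and 11.5% lower, against 37.5% and 15.6% of the tested members. The median log2 fold change of the tested members was 0.35, against 0.00 over all genes. Among those higher in the null line were the guanylate-binding proteins Gbp2 and Gbp4, the antigen-processing genes Psmb8, Tap1 and B2m, and Cxcl10. Those lower were Ifitm2, Ifitm3, Bst2, Stat2 and Ifit2. At least 2-fold changes were seen for 4 of the 12 (Gbp4, Cxcl10, Gbp2 and Mx2) and for 2 of the 5 (Bst2 and Ifit2).

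**Figure D4:**
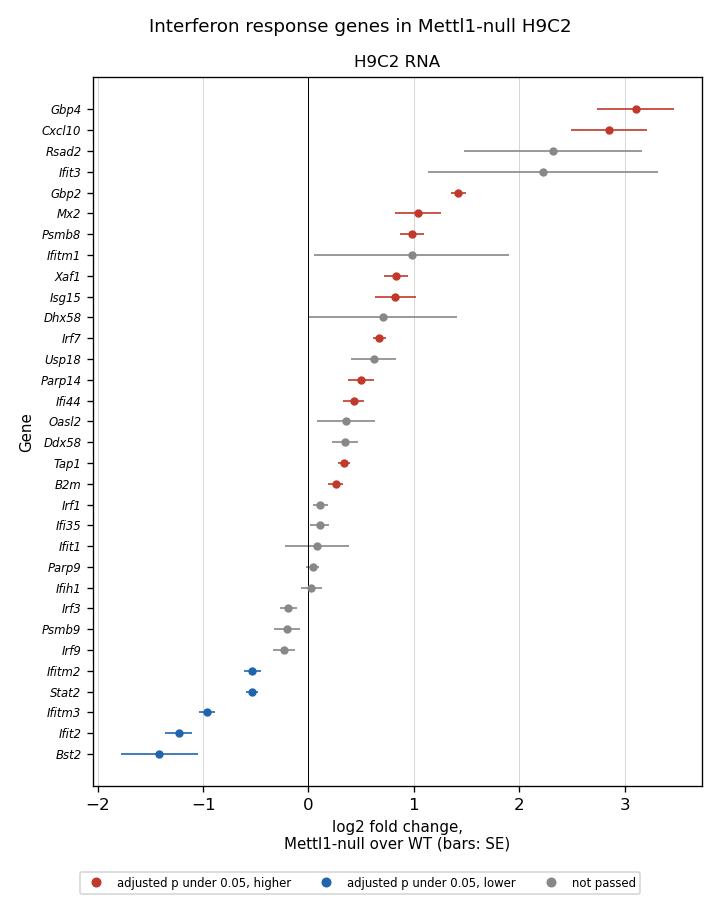
Log2 fold change (Mettl1-null over WT, bars are SE, 3 libraries a group) of the 32 members tested in H9C2, ordered by value, with members past an adjusted p of 0.05 in red (higher) or blue (lower). The values run from −1.42 for Bst2 to 3.11 for Gbp4, and Rsad2 and Ifit3 lie above 2 with wide errors and did not pass.

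The guanylate-binding proteins gave the clearest rise. Gbp2 went from 24.2, 26.2 and 27.3 CPM in WT to 71.5, 72.0 and 65.1 in null cells. The groups were far apart, by 1.42 on the log2 scale (SE 0.07, n = 3 against 3, adjusted p = 5.04e-06). Gbp4 went from 0.20, 0.307 and 0.152 to 1.47, 1.56 and 2.67 (3.11, SE 0.37, adjusted p = 4.94e-04), from 59 counts in WT to 538 in null cells. These genes belong to a cluster of close copies, so their separate values are uncertain where reads match several copies. In the heart Gbp2 and Gbp4 did not pass in either assay.

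Cxcl10 was scarce in WT cells, at 0.20, 0.41 and 0.152 CPM, and stood at 1.74, 1.70 and 2.10 in null cells (log2 fold change 2.86, SE 0.36, adjusted p = 6.98e-04). All null libraries were well above all WT libraries. The gene went from 68 to 523 counts. Its log2 fold change in the heart was 1.5 in RNA and 0.83 in footprints, and the heart and H9C2 values were not tested against each other.

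Of the 4 antigen-processing members, 3 rose in null cells. Psmb8 went from 3.65, 3.23 and 3.81 CPM to 7.31, 6.76 and 7.08 (log2 fold change 0.98, SE 0.11, adjusted p = 4.18e-04). Tap1 went from 33.6, 32.6 and 34.7 to 42.4, 42.3 and 43.0 (0.34, SE 0.06, 0.00272). Neither gene's groups overlapped, and the spread within each was small. B2m went from 289, 342 and 295 to 355.5, 379.7 and 372 (0.26, SE 0.07, 0.0268). The B2m call was lost in 5 of the 6 fits that left out 1 library (adjusted p 0.0563 to 0.114) and kept without WT 2. Psmb9, the partner subunit of Psmb8, did not pass, at 4.12 to 4.93 in WT and 3.78 to 4.32 in null cells.

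Of the transcription factors, Irf7 rose and Stat2 fell. Irf7 stood at 15.9, 16.1 and 15.9 CPM in WT and 25.5, 25.2 and 25.8 in null cells (log2 fold change 0.67, SE 0.06, adjusted p = 1.41e-04). Stat2, which carries the transactivation domain of the complex it forms with IRF9, went from 91.0, 86.8 and 97.3 to 64.2, 62.2 and 62.7 (−0.54, SE 0.06, 2.68e-04). The 2 factors thus moved apart, each with no overlap between groups. Irf1 (30.9 to 33.9 in WT, 33.1 to 37.8 in null), Irf9 (15.8 to 17.3 and 12.8 to 16.4) and Irf3 (36.5 to 44.6 and 35.1 to 36.7) overlapped, and Irf3 passed as lower only without WT 3 (log2 fold change −0.27, adjusted p = 0.0155, against −0.19 and 0.116 with all libraries and a range of 0.0155 to 0.266 over all alternatives).

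Of the 4 membrane restriction factors, 3 fell in null cells. Ifitm3 went from 89.4, 95.1 and 87.5 CPM to 41.9, 50.2 and 47.7 (log2 fold change −0.96, SE 0.07, adjusted p = 5.53e-05). Ifitm2 went from 189, 223 and 181 to 131, 143 and 135 (−0.54, SE 0.08, 0.00169). All null libraries lay below all WT libraries for both genes, which are close relatives whose reads could be shared. Bst2 was low, at 0.556, 0.592 and 0.609 in WT and 0.251, 0.17 and 0.234 in null cells (−1.42, SE 0.36, 0.022), and its call was lost when any 1 library was left out (adjusted p 0.0511 to 0.0758). Ifitm1 was near 0 in both groups, with 19 and 40 counts.

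Ifit2 was the one IFIT member to change in H9C2, and it fell. It went from 5.56, 5.04 and 5.48 CPM in WT to 2.16, 2.57 and 2.12 in null cells (log2 fold change −1.23, SE 0.13, adjusted p = 2.79e-04). The groups did not overlap, and the call held in every alternative with the same threshold (adjusted p 5.43e-13 to 0.0029). Ifit1 (1.01 to 1.62 in WT, 0.848 to 1.71 in null) overlapped. Ifit3 had 11 counts in WT and 56 in null cells and did not pass (adjusted p = 0.178), but was called higher by limma-voom and in the fit without WT 2. All its WT counts were in WT 2, and Ifit3 passed the count filter only through its null libraries, where it is high.

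The remaining changes in H9C2 were rises of modest size. Xaf1 went from 5.14, 4.25 and 5.16 CPM to 9.10, 8.58 and 8.25 (log2 fold change 0.83, SE 0.12, adjusted p = 0.0011). Mx2 went from 1.11, 0.956 and 1.5 to 2.88, 2.16 and 2.30 (1.04, SE 0.22, 0.00935). Neither overlapped between groups, and Mx2 may share reads with Mx1, which had 6 counts in WT and 0 in null cells. Isg15 went from 1.61, 2.33 and 2.13 to 2.91, 3.96 and 3.9 (0.83, SE 0.19, 0.0145), Parp14 from 28.9, 23.9 and 33.1 to 45.4, 38.1 and 38.1 (0.50, SE 0.12, 0.0177) and Ifi44 from 10.2, 9.17 and 9.01 to 11.6, 14.0 and 12.6 (0.43, SE 0.10, 0.0166). Isg15 lost its call without WT 1, null 2 or null 3 (adjusted p 0.0508 to 0.0629), Parp14 without WT 1 or null 1 (0.0642 and 0.0783) and Ifi44 without null 2 or null 3 (0.0714 and 0.0563).

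Among members that did not pass in H9C2, Usp18 came closest to the threshold, at 1.26, 1.6 and 1.08 CPM in WT and 2.06, 1.68 and 2.31 in null cells (adjusted p = 0.0683, and 0.0324 to 0.213 over all alternatives, the lowest without WT 2). Rsad2, with 19 and 102 counts, missed the threshold (0.078) but passed with DESeq2 (0.0495) and limma-voom (0.0455), with a range of 0.0455 to 0.238 over all alternatives. Rsad2 passed the count filter only through its null libraries, where it is high. Ddx58 was higher in all 3 null libraries (3.79 to 4.30 in WT, 4.51 to 5.48 in null) without passing. Ifih1, the most abundant sensor, was level at 5.71, 5.99 and 6.25 in WT and 5.95, 6.04 and 6.31 in null cells. Parp9 (27.3 to 28.9 and 28.0 to 29.5), Ifi35 (9.31 to 10.2 and 10.1 to 11.01) and Oasl2 (0.649 to 1.15 and 1.04 to 1.46) overlapped between groups. Dhx58 reached at most 0.461 CPM.

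Set side by side, 3 members were called both in the heart and in H9C2. Tap1 and Cxcl10 were higher with loss of Mettl1 in both, while Ifit2 was higher in heart footprints (0.81) and lower in H9C2 RNA (−1.23). The heart RNA calls of Tap1 and Cxcl10 were both lost with DESeq2, and Cxcl10 passed the heart RNA count filter only through its cKO libraries. A further 18 members, some of them not tested in every comparison, were called in neither. Matching shares of all genes are not given for the counts of 3 and 18, and those for each pair of comparisons follow. No member was called in both heart RNA and heart footprints, of 33 tested in both, where 9.23% of the 12655 genes tested in both were. Tap1 was called in both when library totals set the scale, genes with any count were kept or a replicate block was used. Ifit2 was called in both with library totals. The members called in heart RNA and in H9C2 were 2 of 32 (6.25%), against 4.92% of the 10417 genes tested in both, and those called in footprints and in H9C2 were 1 of 31 (3.23%), against 5.72% of 10211. Of the 27 members with a mouse promoter, 14 held the response element core. In H9C2 they included 4 called higher and 4 called lower, and the 13 without it included 5 and 1. Oas1a, which holds the core, was not tested in H9C2. In the heart, Cxcl10 among those with the core and Tap1 among those without it were called in RNA, and Ifit2, without it, in footprints. Shares of all genes with and without the core are not given here, so no relation between the core and the calls is read from these counts.

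The upstream part of the pathway was read from a further list of 84 genes. The 6 interferon genes on it were at or near 0. In heart RNA, Ifne had 2 counts in Ctrl and Ifnb1, Ifna4, Ifna2, Ifng and Ifnk had 0 in all 4 libraries. In H9C2, Ifne had 19 counts in WT and 27 in null cells, Ifna2 had 6 and Ifng 2 in null 3 alone, and the other 3 had 0. None was tested.

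In heart RNA 77 of the 84 were tested, of which 4 rose and 2 fell, where 8.16% of all genes rose and 6.26% fell. Besides Psmb10, the E2 enzyme of ISG15 conjugation Ube2l6 rose from 23.8 and 24.4 CPM to 43.6 and 36.6 (log2 fold change 0.74, SE 0.10, adjusted p = 1.23e-04). The GTPases Gbp6 (2.64 and 2.48 against 5.55 and 6.14) and Igtp (12.9 and 14.7 against 19.8 and 18.1) rose by 1.19 and 0.46. Iigp1, an immunity-related GTPase like Igtp, fell from 22.0 and 22.5 to 15.4 and 14.6 (−0.57, SE 0.11, 0.0018), and the adaptor Ticam1 from 17.9 and 17.9 to 14.2 and 13.2 (−0.39, SE 0.11, 0.0316). Igtp lost its call with DESeq2 (adjusted p = 0.0989) and without Ctrl 1 or cKO 1 (0.0727 and 0.143), and Ticam1 with library totals (0.0803), DESeq2 (0.207) and without Ctrl 1, cKO 1 or cKO 2 (0.0635 to 0.173).

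In footprints 74 were tested, of which 8 rose and 2 fell, where 9.11% of all genes rose and 7.33% fell. Ube2l6 (22.5 and 26.1 CPM against 44.0 and 36.5, log2 fold change 0.72) and Igtp (12.1 and 15.3 against 22.3 and 24.7, 0.77) rose as they had in RNA, and Parp10 rose by 0.58. The interferon receptor chain Ifnar2 rose by 0.81 on the frame with the most footprints but was at −0.05 on its longest frame. Ifngr2, a chain of the interferon gamma receptor, fell from 51.0 and 54.3 to 32.7 and 38.4 (−0.57, SE 0.10, adjusted p = 0.00105), and Iigp1 fell again (−0.50, SE 0.12, 0.00881). Parp10 lost its call without cKO 1 (adjusted p = 0.05002), and Iigp1 without Ctrl 1 or cKO 1 (0.0822 and 0.0501). The count of 8 was 5 without cKO 1 and 4 without cKO 2.

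In H9C2 58 were tested, of which 12 rose and 3 fell, where 13.6% of all genes rose and 11.5% fell. The helicase Helz2 rose from 0.111, 0.102 and 0.435 CPM to 2.89, 3.21 and 2.98 (log2 fold change 3.79, SE 0.46, adjusted p = 5.56e-04). Helz2 passed the count filter only through its null libraries, where it is high. Tlr3, the endosomal sensor of double-stranded RNA, rose from 2.13, 2.36 and 2.60 to 5.06, 6.78 and 6.05 (1.33, SE 0.15) and Trim21 rose by 0.86 (SE 0.08). Stat3 fell by 0.31 (SE 0.06), Socs3, which restrains JAK kinases, by 0.50 (SE 0.10) and the GTPase Ifi47 by 0.62 (SE 0.15). Ifi47 lost its call without WT 1, null 1 or null 3 (adjusted p 0.0629 to 0.0678), and the genes that fell numbered 5 without WT 2 and 6 with DESeq2.

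Markers of other cells were read beside these results, since in bulk heart RNA fewer cells of a type and less RNA per cell cannot be told apart. Of 12 macrophage markers in heart RNA, 1 rose, Ccr2 (1.35 and 1.40 CPM against 2.37 and 3.04, log2 fold change 0.96, adjusted p = 0.0456), and their sum went from 763 to 801 CPM in Ctrl to 815 to 890 in cKO. In footprints Ccr2 rose by 2.03, the 1 marker called of 11 tested. Markers of T cells summed to 2.86 to 3.54 CPM in Ctrl and 3.04 to 3.76 in cKO heart RNA, those of NK cells to 0.382 to 0.644 and 0.636 to 1.42, and those of B cells to at most 3.18. The NK cell marker Gzma rose in footprints, from 9 to 49 counts (adjusted p = 0.0384), but passed the count filter only through its cKO libraries. It was the 1 marker tested of the 4 for NK cells. Of the others, mean CPM went from 0.0967 to 0.342 for Nkg7, 0.0416 to 0.0577 for Klrb1c and 0.152 to 0.0683 for Ncr1. The footprints of the 4 NK markers summed to 0.333 to 0.577 CPM in Ctrl and 1.04 to 1.2 in cKO. Of 8 endothelial markers 2 fell (Cldn5 and Pecam1), with sums of 1876 to 1961 in Ctrl and 1734 to 1740 in cKO, and 5 of 9 cardiomyocyte markers fell (49013 to 49296 against 44962 to 45813). In footprints, the endothelial marker Vwf rose (0.35, adjusted p = 0.0128) while Cdh5 fell (−0.36, 0.0173). The muscle genes Des and Tnnt1 rose in both heart assays, by 0.51 and 0.89 in RNA and by 0.31 and 0.95 in footprints. The part of these cells in the changes of Tap1, Zbp1, Cxcl10 and Ifit2 was not tested.

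In H9C2 most defining markers of immune cells had few or no counts. Adgre1, C1qa, C1qb and C1qc of macrophages and all 4 NK cell markers had no count in any library. The macrophage markers Csf1r (1.76 to 2.78 CPM) and Cd68 (0.678 to 1.36) were detected in every library without passing the test, and the macrophage markers summed to 2.60 to 3.25 CPM in WT and 3.25 to 4.01 in null cells. Tcf4, on the list for plasmacytoid dendritic cells, rose from 13.7 to 16.5 CPM to 17.3 to 18.9 (0.32, adjusted p = 0.0413), while T cell markers summed to 1.07 to 2.30 CPM and B cell markers to at most 0.0683. Among myoblast markers, Des (32.2, 34.5 and 30.9 against 83.1, 90.2 and 88.8 CPM) and Myod1 rose and Myog fell (16.0, 16.4 and 16.3 against 7.39, 7.30 and 8.05), and the sum of the 7 went from 151 to 176 in WT to 277 to 295 in null cells. Chrna1, another myoblast marker, rose by 2.63 from 12 counts in all WT libraries to 80, and passed the count filter only through its null libraries. Among markers of other cells, Tnnt2 (−1.57) of cardiomyocytes, Kcnj8 (−0.93) and Pdgfrb (−0.30) of pericytes and Col1a1 (−0.29) and Dcn (−3.29) of fibroblasts were lower, and Pln (0.85) of cardiomyocytes was higher. Dcn, with 106 counts in WT and 11 in null cells, passed the count filter only through its WT libraries. The part of these shifts in the changes of the interferon response genes was not tested.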

How the data were processed

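The authors deposited whole-number counts, with no normalization, per gene for heart RNA-seq and H9C2 RNA-seq and per open reading frame for heart Ribo-seq. Bowtie, Bowtie2, DESeq2, HISAT2, StringTie, featureCounts, STAR and cutadapt are named in the submitters' processing notes, with the builds Rnor_6.0 and GRCm38. For each table, the tool, its version, the strand setting and the treatment of reads that match several places are not given in the sources used here. Analysis was of 14 libraries, and the 4 tRNA libraries among the 18 samples were not analysed here. Per the file headers, annotation (GTF) files gave the H9C2 columns their names, and those counts may derive from transcript coverage instead of reads.

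Members were matched by symbol, mouse IDs through a name table and rat symbols as given beside the IDs. The members and lists were chosen with earlier results of these data known. For each of 17866 genes the frame with the most footprints was kept. Each comparison used edgeR 4.0.16 in R 4.3.3 (glmQLFit and glmQLFTest, TMM factors, filterByExpr, Benjamini-Hochberg adjustment over all genes tested, threshold 0.05) on the counts as deposited. Heart RNA and footprints were fitted apart (2 against 2), H9C2 as 3 against 3, and translational efficiency as the interaction of genotype and assay. The SE of a log2 fold change is its absolute value over the square root of F. The procedure was tested on simulated data. Levels are CPM with TMM factors, and positions of mouse genes come from RefSeq records on GRCm38.p6.

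All members are named. Values in every library are given for each member past the threshold and for the member with the highest mean level in each role. Of the 84 other pathway genes, the 4 with the smallest adjusted p in each direction are named, with the interferons. Some genes that this rule names are not reported here. Further values, such as those of members near the threshold, of single marker genes of other cells and of Art3, and the statement of which frames Ifit2 has, were chosen after they were seen. Alternatives were relative-log-expression factors, library totals, 2 other count filters, DESeq2 1.42.0, limma-voom (limma 3.58.1), a replicate block, other frames, a 2-fold threshold and leaving out each library. For translational efficiency, the RNA and footprint library of 1 number were left out together. Leaving out a heart library leaves 1 sample in that genotype, which is assumed to vary like the other genotype's samples. No 2 libraries held identical counts.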

Additional observations from a re-analysis of the deposited data

Results flagged for a closer look

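Ifit2 moved in opposite directions in the 2 systems. Its log2 fold change with loss of Mettl1 was 0.81 in heart footprints, where both cKO libraries were above both Ctrl libraries, and −1.23 in H9C2 RNA, where all 3 null libraries were below all 3 WT libraries. The assays and species differ, and the difference itself was not tested.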

How the results depend on the processing

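Log2 fold changes were recomputed for a set of genes chosen by their values. It held members at an unadjusted p under 0.05 or called in the heart, the extreme interactions, and at most 4 pathway genes in each direction. Of its 766 recomputed values, 696 kept their direction and their side of the threshold, 43 no longer passed, 25 newly passed and 2 changed sign. The sign changes within this set were Ifnar2 footprints on the longest frame (−0.0486) and the interaction of Zbp1, which ranged from −1.24 to 0.38 without each replicate in turn. Neither value passed in those fits. In heart RNA, the 3 members called higher became 1 with at least 50 counts and 0 with DESeq2, and 1 to 2 without each replicate. In heart footprints, the 1 member called higher became 8 with library totals (1639 of all 13514 genes higher) and 5 when genes with any count were tested (1422 of 16320). It became 0 with a further 2-fold threshold. In H9C2, a 2-fold threshold left 4 of 12 higher and 2 of 5 lower. Within an assay, pairing of the genotypes by replicate number was not seen. Deviations of same-numbered libraries correlated at 0.0092 in heart RNA, −0.0404 in footprints and −0.0526 to 0.0479 in H9C2. With 2 libraries a genotype, each heart assay gives only 1 such value. Deviations of the same-numbered RNA and footprint libraries correlated at 0.166 in Ctrl and 0.0898 in cKO. The labels do not say whether such libraries share a heart, and these values cannot settle it. With a replicate block, the members called higher in footprints were 6, with Usp18, Parp14, Psmb8, Psmb9 and Tap1 added to Ifit2, and Bst2 was lost in H9C2 (adjusted p = 0.0683). The block changed no other call of a member, and in translational efficiency it moved the calls over all genes from 9 higher and 7 lower to 48 and 86 and those of the other pathway genes from 0 to 1 higher and 2 lower. Over all members, none called in a comparison changed sign under any alternative, but uncalled ones did. In heart RNA 4 to 10 of 36 changed sign without each replicate and 8 with library totals, in footprints 3 to 5 of 33 and 3, and in translational efficiency 4 to 10 of 33 without each replicate. In H9C2 at most 1 of 32 did. The stricter filter removed Zbp1 and Cxcl10 from heart RNA, and limma-voom was not run for translational efficiency. The causes of the other shifts were not tested.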
